A study of Mus musculus with 9 samples.

Results

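The ion and metal transporters of brown adipose tissue (BAT) are described here across acute cold and loss of the kinase GCN2. The members are the genes whose symbol places them in 15 solute carrier (SLC) families, namely SLC4, SLC8, SLC9, SLC11, SLC12, SLC13, SLC20, SLC22, SLC24, SLC26, SLC30, SLC34, SLC39, SLC40 and SLC41. The symbol rule found 84 of the 16937 genes in the deposited tables. Of these, 81 are transporters by name, and 3 match through their symbol only. These are Slc4a1ap, an adaptor protein gene, and Slc9a3r1 and Slc9a3r2, which encode PDZ scaffold proteins of sodium/proton exchangers. SLC22 was the family with the most members (15 genes), followed by SLC39 (13 genes), SLC9 (10 genes), SLC4 and SLC30 (8 genes each) and SLC12 and SLC26 (7 genes each). The rule reads symbols only, but the families were chosen with earlier results of these data known.

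RNA was sequenced from BAT of adult mice on the C57Bl/6J background, aged 12 to 23 weeks, to learn how GCN2 affects the response to cold. There were 3 groups of 3 libraries. WT RT mice were wild type and stayed at 23 °C, WT Cold mice were wild type and spent 8 h at 4 °C, and GCN2 KO Cold mice lacked Gcn2 in the whole body and spent 8 h at 4 °C. The groups held males and females, no library was tied to a sex, and no GCN2 KO mice at room temperature were analysed here. The table columns carry no mouse number, so the letters A, B and C name the libraries of a group by the order of their codes, and p-values measure the spread between these libraries. WT RT library codes start with other letters than the codes of both cold groups. No label says what these letters mark, and whatever they mark cannot be told apart from cold.

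Reads on the listed genes numbered 27058799 to 30768064 per library. The 12 brown adipocyte markers checked were all above 1 scaled CPM in each group, and their summed level was 19594 to 22514 scaled CPM in WT RT, 27917 to 29408 in WT Cold and 34669 to 35706 in GCN2 KO Cold. Scaled CPM are the reads of a gene divided by a size factor per library and rescaled to CPM, the usual library-size scale, over the 9 libraries. Eif2ak4, which encodes GCN2, had 10.1, 11.5 and 12.7 scaled CPM in WT RT, 6.26, 8.22 and 8.46 in WT Cold and 12.7, 13.7 and 12.8 in the group labelled GCN2 KO Cold. It was therefore not lower in that group (log2 fold change against WT Cold 0.78, adjusted p = 0.0932, limma). The counts cover all exons together and do not show whether the deleted part of the gene was read, so every direction given below for this group rests on its label.

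Solute carriers move ions and small molecules across cell membranes, mostly by coupling one solute to the gradient of another. Cation-chloride cotransporters of SLC12 set cell chloride and volume, SLC4 and SLC9 proteins move bicarbonate and protons, and SLC8 and SLC24 proteins exchange sodium for calcium. SLC30 proteins lower cytosolic zinc and SLC39 proteins raise it, SLC11 and SLC40 proteins carry iron and manganese, and SLC22 proteins carry organic cations and anions such as carnitine, urate and catecholamines. In brown adipocytes, noradrenaline released in the cold raises cyclic AMP and calcium and depolarizes the membrane, and heme and iron-sulfur proteins of the respiratory chain make the cells rich in iron.

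Promoter sequences are shown for 4 members, a zinc transporter gene and an organic cation transporter gene that were higher in WT Cold (Slc30a2 and Slc22a4), a gene known to respond to zinc that did not pass the test (Slc30a1), and the member with the largest fall (Slc22a3). They are RefSeq sequences of GRCm38.p6, from 250 bases before to 50 bases after the annotated start, written 5′ to 3′ on the strand of the gene. Capitals mark matches to the core of the metal response element, the site bound by the zinc sensor MTF1, spelled TGCACNC or TGCGCNC on either strand. The windows are chr4:134343216-134343515 on the plus strand for Slc30a2, chr1:191906531-191906830 on the plus strand for Slc30a1, chr11:54028055-54028354 on the minus strand for Slc22a4 and chr17:12507655-12507954 on the minus strand for Slc22a3.
Slc30a2: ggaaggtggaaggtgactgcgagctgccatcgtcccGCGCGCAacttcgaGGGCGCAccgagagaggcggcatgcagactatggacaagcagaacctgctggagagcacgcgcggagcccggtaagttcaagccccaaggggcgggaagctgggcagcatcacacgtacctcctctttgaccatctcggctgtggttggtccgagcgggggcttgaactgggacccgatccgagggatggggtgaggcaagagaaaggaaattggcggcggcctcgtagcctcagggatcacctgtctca
Slc30a1: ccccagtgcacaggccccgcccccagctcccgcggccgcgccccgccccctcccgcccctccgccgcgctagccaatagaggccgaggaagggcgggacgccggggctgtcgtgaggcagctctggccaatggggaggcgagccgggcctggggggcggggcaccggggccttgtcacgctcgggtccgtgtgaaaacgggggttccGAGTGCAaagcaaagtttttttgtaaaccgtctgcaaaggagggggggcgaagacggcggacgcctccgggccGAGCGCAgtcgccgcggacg
Slc22a4: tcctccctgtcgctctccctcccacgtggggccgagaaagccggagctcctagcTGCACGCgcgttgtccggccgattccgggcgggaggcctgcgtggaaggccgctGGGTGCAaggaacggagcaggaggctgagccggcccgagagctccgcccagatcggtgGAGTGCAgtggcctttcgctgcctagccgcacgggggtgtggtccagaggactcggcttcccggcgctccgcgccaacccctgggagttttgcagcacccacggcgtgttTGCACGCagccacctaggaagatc
Slc22a3: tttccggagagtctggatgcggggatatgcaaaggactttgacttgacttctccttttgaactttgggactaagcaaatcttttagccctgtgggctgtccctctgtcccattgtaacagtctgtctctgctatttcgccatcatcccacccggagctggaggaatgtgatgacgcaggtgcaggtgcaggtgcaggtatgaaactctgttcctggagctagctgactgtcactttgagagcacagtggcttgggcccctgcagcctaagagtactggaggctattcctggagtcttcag
The Slc30a2 window held 2 matches, the Slc30a1 window 2, the Slc22a4 window 4 and the Slc22a3 window 0, and no matches within a window overlapped. A match was present in 25.7% of all 32851 promoters of the table and in 36.2% of the 80 promoters of members, which belong to 66 of the 84 members. The core of the cyclic AMP response element, TGACG on either strand, was present in 20.8% of all promoters and in 23.8% of the members' promoters, and once in the Slc22a3 window. The 4 genes were picked for display and do not stand for the members that rose or fell. Among other members higher in WT Cold by more than 1 on the log2 scale (adjusted p under 0.05, limma), Slc22a12 had 0 metal matches and Slc9a3 had 1. Among other members lower by that rule, a Slc24a3 window had 2 and another had 0, and Slc11a1, Slc26a10 and Slc9a9 had 0. These are letter matches in a window and no measure of binding.

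Most of these genes were expressed at moderate levels. On a scale of scaled CPM per kilobase of exon (scaled RPKM), averaged over the 9 libraries, the median over the 82 members with a value was 1.75, and the median over all genes was 2.5. Of these members, 9 exceeded 10 scaled RPKM, 45 lay between 1 and 10, and 28 were below 1. The highest levels were those of the scaffold gene Slc9a3r2 (29.1), the sodium bicarbonate cotransporter gene Slc4a4 (28.8), the carnitine transporter gene Slc22a5 (25.4), the zinc importer gene Slc39a1 (22.8) and the potassium-dependent sodium/calcium exchanger gene Slc24a3 (21.3). In the other families, the highest member was Slc12a2 (14.1), Slc20a1 (11.8), Slc26a3 (10.5), Slc30a9 (8.91), Slc11a2 (6.70), Slc41a1 (4.15), Slc40a1 (3.32), Slc13a2 (1.25), Slc8a3 (0.251) and Slc34a2 (0.0977). The SLC8, SLC13 and SLC34 families thus had no member above the median of all genes.

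**Figure D1:**
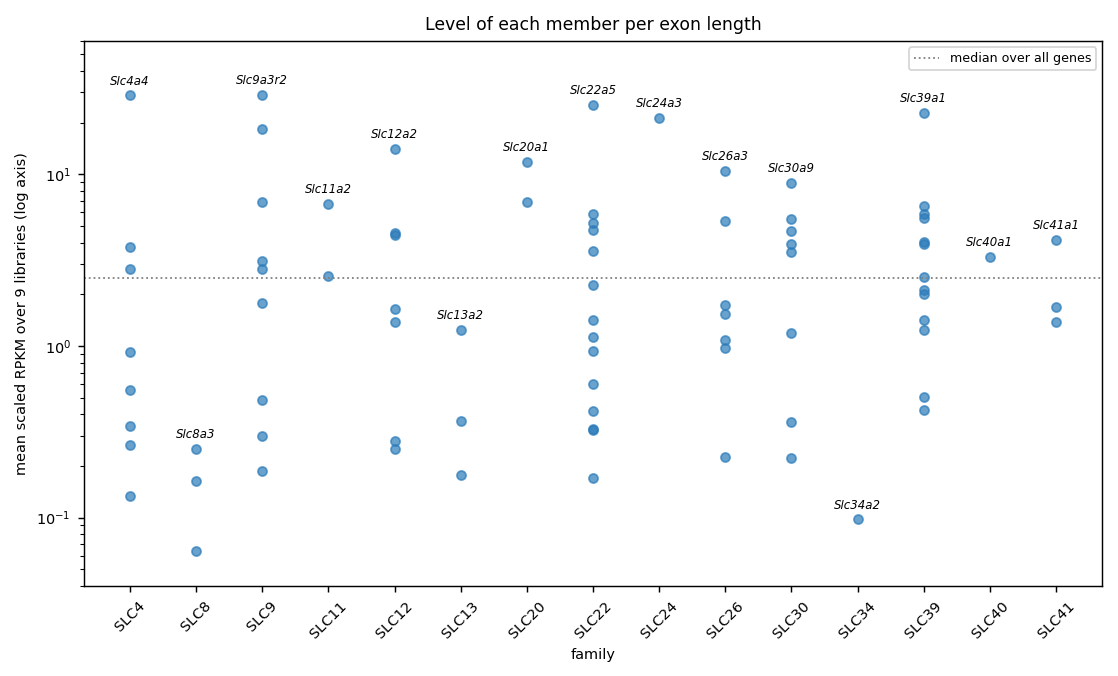
Mean level of each member in scaled RPKM over the 9 libraries (vertical log axis) by family, with each point a gene and the highest member of each family named. The dotted line is the median over all genes, 2.5, and 9 members lie above 10.

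In WT Cold against WT RT, the wild-type response to cold, the chloride importer gene Slc12a2, the metal importer gene Slc39a14 and the organic ion transporter genes Slc22a12 and Slc22a4 were higher in the cold, and the catecholamine transporter gene Slc22a3 was lower. The test was limma on log2(normalized count + 1), adjusted over all genes of the table. A gene was called where the adjusted p was under 0.05 and the log2 fold change above 1 or below -1, and it is said to have passed, risen or fallen where the adjusted p was under 0.05. Of 83 members tested, 6 were called higher, against 2.99% of all 16679 genes, and 5 were called lower, against 5.15% of all genes. The members' shares were 7.23% and 6.02%. At any fold change, 13 members rose and 8 fell, shares of 15.7% and 9.64%, where 13.6% of all genes rose and 14.1% fell. The median log2 fold change was 0.21 over the members and 0.00 over all genes tested. These figures move with single libraries. Without WT Cold library C, 10 members were called higher, 19 passed higher and 13 lower, and without WT Cold library B or WT RT library B 5 passed lower. The median was 0.10 without WT RT library A and 0.12 without WT Cold library B. Among the 65 members with a mean normalized count of 50 or above, 3 were called higher, beside 395 of 13061 genes. The 6 members called higher are Slc12a2, Slc22a12, Slc22a4, Slc30a2, Slc39a14 and Slc9a3. The study examined SLC genes raised by cold in these same libraries, so a rise of an SLC gene here is not independent evidence.

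**Figure D2:**
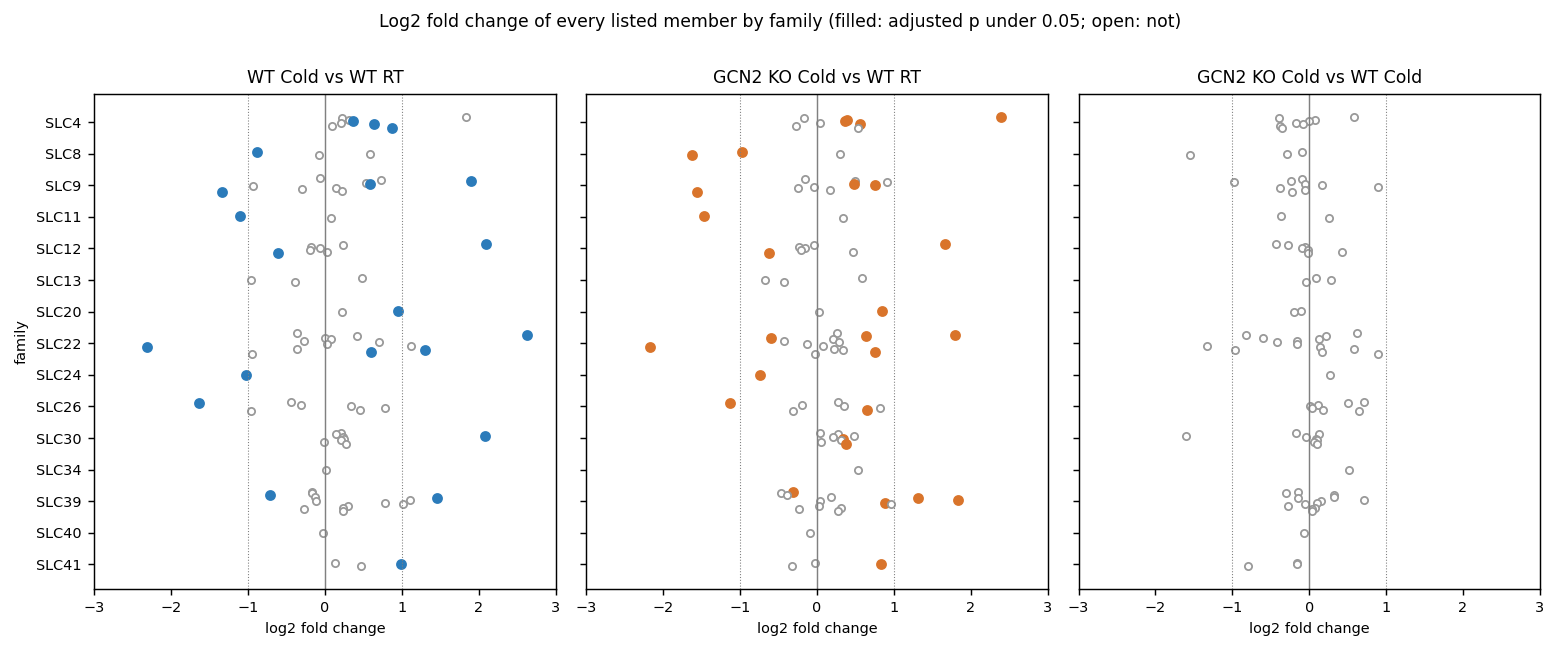
Log2 fold change (horizontal axis) of every listed member in its family (vertical axis) for the 3 comparisons, with each point a gene, filled where the adjusted p was under 0.05, and dotted lines at -1 and 1. In WT Cold against WT RT 21 points are filled, in GCN2 KO Cold against WT RT 28, and in GCN2 KO Cold against WT Cold 0.

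In the comparison of the libraries labelled GCN2 KO Cold with WT RT, 5 of 82 members were called higher and 5 lower, shares of 6.1% each, beside 3.01% and 7.58% of all 16560 genes. At any fold change 18 members rose and 10 fell, shares of 22% and 12.2%, where 16.4% of all genes rose and 17.8% fell. The median was 0.20 over the members and 0.01 over all genes. Without WT RT library A, 11 passed higher and 7 lower, and without library A labelled GCN2 KO Cold 3 were called higher. The median was 0.12 without WT RT library C and 0.13 without library C labelled GCN2 KO Cold. Among members with a mean of 50 or above, 2 of 65 were called higher, beside 384 of 12920 genes. Both cold groups were compared with the same WT RT libraries, so their values are given side by side only. With all 3 groups in one fit on plain CPM, without size factors, the median of all genes moved to -0.19 in this comparison and that of the members to -0.01. In that fit 11 members passed higher and 18 lower. It differs in the groups and in the scaling, and which of these moved the counts was not tested. With TMM scaling alone, 17 passed higher and 12 lower.

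No member passed the limma test between the genotypes in the cold. In GCN2 KO Cold against WT Cold, 0 of 82 members passed the test with limma. In all 16312 genes of that table, 0.178% passed higher and 0.227% lower, and 0.0613% were called higher and 0.196% lower. At an unadjusted p under 0.05, limma listed 11 members or 13.4%, 8 lower and 3 higher, where the share of all genes was 15.3%. edgeR passed 0 members. DESeq2 passed 1 member, the sodium/calcium exchanger gene Slc8a3, which was lower (adjusted p = 0.0308), and 1.8% of all genes passed lower with DESeq2. In the fit of all 3 groups on plain CPM, Slc8a3 was called lower. The members' median log2 fold change was -0.04, and between -0.05 and 0.02 with each library left out.

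**Figure D3:**
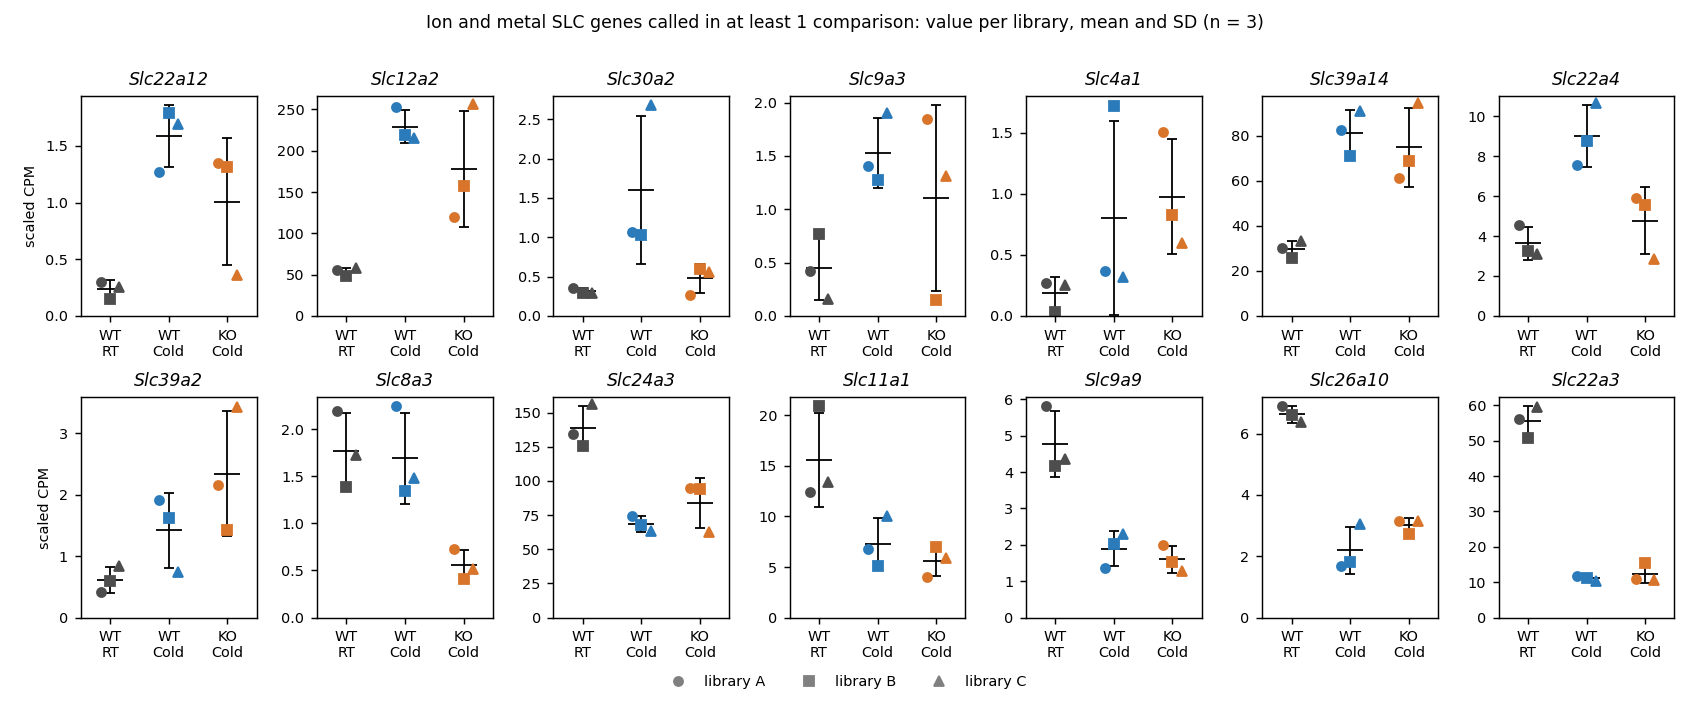
Scaled CPM (vertical axes, from 0) of the 14 members called in at least 1 comparison, with each symbol a library (A circle, B square, C triangle) and the bar and whiskers the mean and SD of 3 libraries. In Slc12a2, Slc39a14, Slc22a3, Slc26a10, Slc9a9, Slc11a1, Slc24a3, Slc22a12 and Slc4a1 all cold libraries lie on one side of all WT RT libraries. The gap is small in Slc22a12 (0.359 against 0.300) and Slc4a1 (0.317 against 0.270). In Slc8a3 only the libraries labelled GCN2 KO Cold stand apart.

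Among the chloride cotransporters, the importer gene rose and an exporter gene did not pass. Slc12a2 encodes NKCC1, which brings sodium, potassium and chloride into the cell. It had 55.0, 48.1 and 57.7 scaled CPM in WT RT, 253, 219.6 and 215 in WT Cold and 120.1, 158 and 256 in GCN2 KO Cold. Every cold library was above every WT RT library, the cold groups overlapped, and library C labelled GCN2 KO Cold was as high as WT Cold. The log2 fold change against WT RT was 2.09 ± 0.10 (SE, adjusted p = 4.12e-05, limma) in WT Cold and 1.66 ± 0.24 (SE, adjusted p = 0.00148, limma) in GCN2 KO Cold. It was the largest rise among members whose normalized counts averaged 50 or more in both comparisons. Between the cold groups its log2 fold change was -0.43, with a 95% interval from -1.01 to 0.14 (adjusted p = 0.469, limma). The potassium-chloride exporter gene Slc12a7, which encodes KCC4, had a log2 fold change of -0.19 in WT Cold against WT RT (adjusted p = 0.311, limma). Slc12a9, an orphan member of the family, fell by 0.61 on the log2 scale in WT Cold (adjusted p = 0.0236, limma) and by 0.62 in GCN2 KO Cold (adjusted p = 0.00608, limma). Leaving out WT Cold library A or B or WT RT library A or B raised its adjusted p in WT Cold to between 0.069 and 0.0827.

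Most kinases and regulators that act on SLC12 cotransporters did not pass the test. Of 12 genes of this list measured, 3 rose (25%) and 1 fell (8.33%) in WT Cold, beside 13.6% and 14.1% of all genes. The counts against WT RT were also 3 and 1 in GCN2 KO Cold, beside 16.4% and 17.8%. In WT Cold 1 gene rose without WT Cold library B or WT RT library A or B, and 2 fell without WT Cold library C. The 1 fall in GCN2 KO Cold was found in the test without its library A and in no other test that left out 1 library. Sgk1, a kinase that raises sodium transport, rose from 85.8, 64.1 and 64.6 scaled CPM in WT RT to 190, 182 and 166 in WT Cold and 182, 171 and 192 in GCN2 KO Cold. Its log2 fold changes were 1.33 (adjusted p = 0.000502, limma) and 1.36 (adjusted p = 0.000225, limma). Stk39, which encodes the kinase SPAK that activates NKCC1, fell by 0.82 on the log2 scale in WT Cold (adjusted p = 0.00221, limma) and by 0.55 in GCN2 KO Cold (adjusted p = 0.0311, limma), where it passed without library A labelled GCN2 KO Cold and had adjusted p from 0.0523 to 0.101 without any other single library. Cul3, a ubiquitin ligase gene of the WNK pathway, and Ppp1r1a, a phosphatase inhibitor gene, were the other rises, and in WT Cold neither passed without WT Cold library B or WT RT library A or B (adjusted p from 0.0561 to 0.084). Cul3 also did not pass without WT Cold library A or, in GCN2 KO Cold, without library B or C of that group or WT RT library A or B (from 0.0567 to 0.0864), and Ppp1r1a not without WT RT library C (0.0525). In the fit of all 3 groups the adjusted p was 0.282 for Cul3 in GCN2 KO Cold and 0.0608 for Ppp1r1a in WT Cold (limma). The sodium pump clears the sodium that cotransporters bring in. Of 10 pump subunit genes, 2 rose (20%) and 1 fell (10%) in WT Cold, beside 13.6% and 14.1% of all genes, and 3 rose and 3 fell (30% each) in GCN2 KO Cold against WT RT, beside 16.4% and 17.8%. The beta subunit gene Atp1b1 rose in both, with log2 fold changes of 1.47 (adjusted p = 0.00239, limma) and 1.35 (adjusted p = 0.00216, limma).

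In the bicarbonate family SLC4, 3 of 8 genes rose in WT Cold (37.5%, beside 13.6% of all genes) and 4 in GCN2 KO Cold (50%, beside 16.4%), the latter with the adaptor gene Slc4a1ap, which is no transporter. The 4 became 1 without library B labelled GCN2 KO Cold and 2 without WT RT library A or C. Slc4a1ap passed without library C labelled GCN2 KO Cold and had adjusted p from 0.0589 to 0.0886 without any other single library and 0.203 in the fit of all 3 groups. Log2 fold changes above 0 were found for 8 of 8 genes in WT Cold, where 50.2% of all genes were above 0, and for 6 of 8 in GCN2 KO Cold. Slc4a4 encodes NBCe1, which carries sodium and bicarbonate together. It had 244, 202 and 251 scaled CPM in WT RT, 363, 329 and 392 in WT Cold and 312, 346 and 367 in GCN2 KO Cold. All cold libraries were above all WT RT libraries, and the log2 fold changes were 0.64 ± 0.11 (SE, adjusted p = 0.00498, limma) and 0.56 ± 0.11 (SE, adjusted p = 0.00483, limma). Slc4a8, a sodium-driven chloride/bicarbonate exchanger gene, rose by 0.88 in WT Cold (adjusted p = 0.00976, limma) and had 0.53 in GCN2 KO Cold (adjusted p = 0.0746, limma). In GCN2 KO Cold it passed as higher without library A of that group. Slc4a2, which encodes the anion exchanger AE2, passed with a log2 fold change of 0.36 in each cold group (adjusted p = 0.0279 and 0.0187, limma), but in WT Cold it did not pass without WT Cold library A or B or WT RT library A or C (adjusted p up to 0.0997), nor in GCN2 KO Cold without library B of that group or WT RT library A or C (up to 0.0668). In the fit of all 3 groups on plain CPM its adjusted p was 0.0597 and 0.239.

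Slc4a1, the anion exchanger of red blood cells, was called in GCN2 KO Cold and went together with red blood cell genes. It had 0.270, 0.0296 and 0.256 scaled CPM in WT RT, 0.368, 1.72 and 0.317 in WT Cold and 1.5, 0.826 and 0.598 in GCN2 KO Cold. In WT Cold a single library, B, stood above the others. Its log2 fold change was 2.40 ± 0.67 (SE, adjusted p = 0.0255, limma) in GCN2 KO Cold and 1.83 ± 0.84 (SE, adjusted p = 0.141, limma) in WT Cold. Without library A labelled GCN2 KO Cold the adjusted p was 0.0764, and without library B 0.0544. The gene rests on few molecules, with normalized counts from 0.855 to 7.86 in WT RT. Of 10 red blood cell markers, 7 were measured, 2 of these were under 1 scaled CPM, and Epb42, Ahsp and Klf1 were not listed. Their summed level was 238 to 323 scaled CPM in WT RT, 581 to 2258 in WT Cold, with the highest value in library B, and 1171 to 2219 in GCN2 KO Cold, and their part in the Slc4a1 result was not tested.

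Of the sodium/proton exchangers, an epithelial gene rose in WT Cold and an endosomal gene fell in both cold groups. Slc9a3 encodes NHE3, the apical exchanger of kidney and gut. It had 0.420, 0.769 and 0.160 scaled CPM in WT RT, 1.41, 1.27 and 1.90 in WT Cold and 1.85, 0.150 and 1.32 in GCN2 KO Cold. The WT Cold libraries lay above all WT RT libraries, while library B labelled GCN2 KO Cold was the lowest of the 9, and its group spanned a 12.3-fold range. For Slc9a3 the log2 fold change was 1.90 ± 0.52 (SE, adjusted p = 0.0298, limma) in WT Cold and 0.91 ± 0.89 (SE, adjusted p = 0.464, limma) in GCN2 KO Cold. In GCN2 KO Cold it passed as higher without library B of that group. The call in WT Cold was weak, with adjusted p from 0.0508 to 0.0724 without WT Cold library A, B or C or WT RT library A or C, and 0.127 with all 3 groups in the fit.

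Slc9a9 encodes the endosomal exchanger NHE9. It had 5.83, 4.17 and 4.36 scaled CPM in WT RT, 1.37, 2.03 and 2.29 in WT Cold and 2.00, 1.54 and 1.28 in GCN2 KO Cold. The groups in the cold did not reach any WT RT library, and the log2 fold changes were -1.34 ± 0.25 (SE, adjusted p = 0.00728, limma) and -1.56 ± 0.24 (SE, adjusted p = 0.00215, limma). The scaffold gene Slc9a3r2 rose by 0.59 in WT Cold (adjusted p = 0.00742, limma) and by 0.76 in GCN2 KO Cold (adjusted p = 0.00135, limma).

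Of 19 acid and bicarbonate partner genes measured, 6 rose (31.6%) and 2 fell (10.5%) in WT Cold, beside 13.6% and 14.1% of all genes. The counts in GCN2 KO Cold were 5 higher (26.3%) and 3 lower (15.8%), beside 16.4% and 17.8%. The list holds the scaffold genes Slc9a3r1 and Slc9a3r2, which are counted among the members too. Slc9a3r2 is among the rises in both cold groups and Slc9a3r1 among those in GCN2 KO Cold. There Slc9a3r1 did not pass without library A or C of that group or WT RT library A or C. Its adjusted p was then from 0.0757 to 0.111, and 0.274 in the fit of all 3 groups (limma). The falls in WT Cold, Car7 and Ahcyl1, numbered 0 without WT Cold library B, 1 without WT Cold library A or WT RT library B or C, and 4 without WT Cold library C. Among the rises, Tesc did not pass without WT Cold library A or WT RT library A or B (adjusted p from 0.0587 to 0.0718). The carbonic anhydrase gene Car14, whose product faces the outside of the cell, had 9.6, 5.4 and 7.0 scaled CPM in WT RT, 24.8, 28.2 and 17.4 in WT Cold and 37.0, 58.9 and 24.1 in GCN2 KO Cold. Its log2 fold changes were 1.68 (adjusted p = 0.00273, limma) and 2.39 (adjusted p = 0.00117, limma). Car4 and Car13 rose in both cold groups, and Car7 fell by 1.13 and 1.47 on the log2 scale. Car5b, a mitochondrial isoform, rose in WT Cold (0.46, adjusted p = 0.0094, limma), and the other, Car5a, was not among the rises. Car7 did not pass in WT Cold without WT Cold library A or B or WT RT library B or C (adjusted p from 0.0901 to 0.13), and Car5b not in the fit of all 3 groups (0.194). No partner gene of any list passed between the cold groups.

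The SLC8 sodium/calcium exchangers were low, and Slc24a3 was among the members with the highest levels. Slc24a3 and Slc8a1 fell in both cold groups, and Slc8a3 passed in GCN2 KO Cold against WT RT but not in WT Cold. Slc24a3 encodes NCKX3, which exchanges sodium for calcium and potassium. It had 134, 126 and 156 scaled CPM in WT RT, 74.7, 67.4 and 63.1 in WT Cold and 95.1, 93.9 and 63.0 in GCN2 KO Cold. All cold libraries were below all WT RT libraries, with log2 fold changes of -1.02 ± 0.10 (SE, adjusted p = 0.000704, limma) and -0.74 ± 0.16 (SE, adjusted p = 0.00939, limma). The value in WT Cold lay just past the fold limit and was -0.96 without WT Cold library C and -0.93 without WT RT library C, both still past the test. Slc8a1, which encodes NCX1 and is best known from heart muscle, fell by 0.89 in WT Cold (adjusted p = 0.0291, limma) and by 0.97 in GCN2 KO Cold (adjusted p = 0.0193, limma), from a level below 2 scaled CPM. In WT Cold it passed without WT Cold library C and had adjusted p up to 0.0903 without any other single library, and in GCN2 KO Cold it did not pass without library B of that group or WT RT library A or B (up to 0.0712).

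Slc8a3 was the member with the lowest adjusted p between the genotypes in the cold. It encodes NCX3, a sodium/calcium exchanger of skeletal muscle and brain. It had 2.19, 1.39 and 1.73 scaled CPM in WT RT, 2.24, 1.34 and 1.48 in WT Cold and 0.732, 0.413 and 0.519 in GCN2 KO Cold. The WT groups overlapped, and all libraries labelled GCN2 KO Cold were below them. The gene rests on few reads, with a mean normalized count of 30.6 over the cold groups, and it fell out of the test at a mean of 50 or above in both comparisons with GCN2 KO Cold. Limma gave -1.54 ± 0.34 on the log2 scale against WT Cold (SE, adjusted p = 0.116, limma), with a 95% interval from -2.33 to -0.76, and -1.63 ± 0.33 against WT RT (SE, adjusted p = 0.00636, limma). The summed level of 14 skeletal muscle markers was 2402 to 2715 scaled CPM in WT RT, 2283 to 3644 in WT Cold and 348 to 1403 in GCN2 KO Cold, and 13 of the 14 fell in GCN2 KO Cold against WT RT. Against WT Cold 2 of the 14 fell, and the log2 fold changes of all 14 were below 0. Every one of these markers was above 1 scaled CPM in each group, and their part in the Slc8a3 result was not tested. In bulk tissue, fewer cells of a type and less RNA per cell cannot be told apart. The muscle calcium pump gene Atp2a1 had 290, 236 and 274 scaled CPM in WT RT, 555, 504 and 343 in WT Cold and 176, 140 and 35.6 in GCN2 KO Cold, a log2 fold change between the cold groups of -2.26 (adjusted p = 0.142, limma). Of 8 calcium pump and exchange partners, Atp2a1, Atp2a2 and Atp2b1 rose in WT Cold (37.5%, beside 13.6% of all genes), and 1 gene rose without WT Cold library B or WT RT library B. Atp2b1 passed without WT Cold library C and had adjusted p from 0.0677 to 0.146 without any other single library and 0.212 in the fit of all 3 groups. Atp2a1 did not pass without WT Cold library B or WT RT library B (0.0571 and 0.0551) or in that fit (0.317). In GCN2 KO Cold against WT RT Atp2a2 rose by 0.54 and Slc8b1, the mitochondrial sodium/calcium exchanger gene, fell by 0.74 on the log2 scale (adjusted p = 0.00168 and 0.00857, limma).

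**Figure D4:**
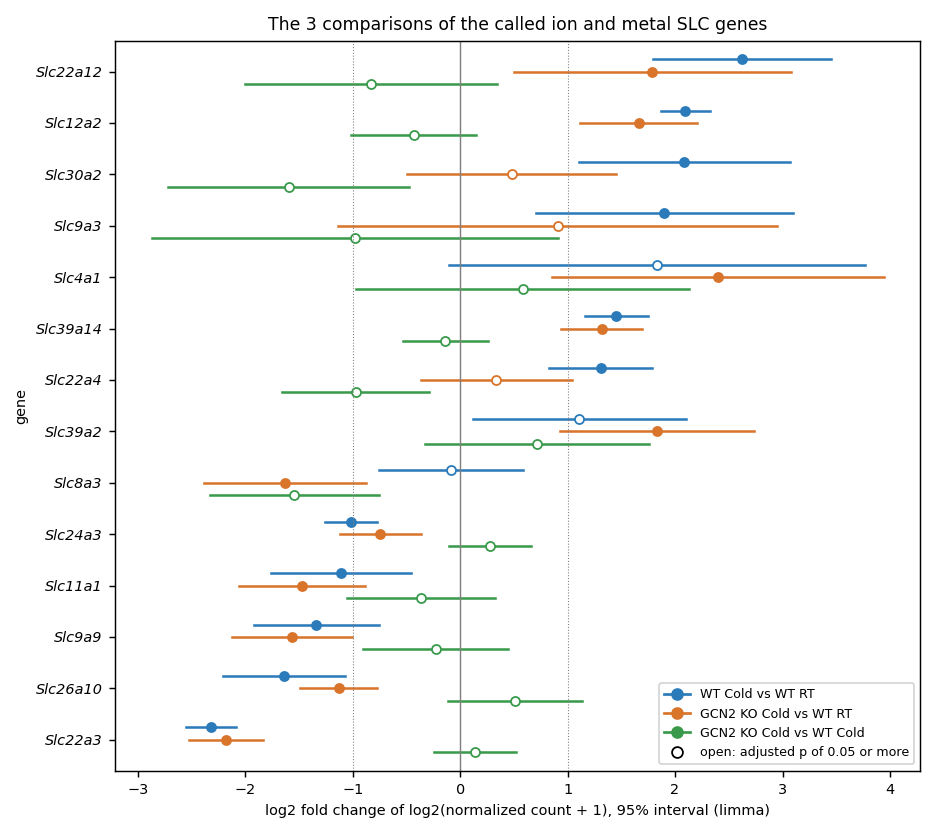
Log2 fold change with its 95% interval (horizontal axis) of the 14 called members (vertical axis) in the 3 comparisons, filled where the adjusted p was under 0.05. In Slc8a3 the comparisons of GCN2 KO Cold with WT RT (-1.63) and with WT Cold (-1.54) lie together, and all points of GCN2 KO Cold against WT Cold are open.

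Zinc importers and exporters each had a member that rose in WT Cold, and the zinc-binding metallothionein genes Mt1 and Mt2 rose in both cold groups. Slc39a14 encodes ZIP14, which imports zinc, manganese and iron not bound to transferrin. It had 30.1, 25.8 and 33.1 scaled CPM in WT RT, 82.6, 70.8 and 90.9 in WT Cold and 61.2, 68.8 and 94.4 in GCN2 KO Cold. Every cold library was above the WT RT libraries, and the cold groups overlapped. Its log2 fold change was 1.45 ± 0.13 (SE, adjusted p = 0.000434, limma) in WT Cold and 1.32 ± 0.16 (SE, adjusted p = 0.000898, limma) in GCN2 KO Cold, and the difference between these groups was -0.14, with a 95% interval from -0.53 to 0.26.

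Slc30a2 encodes ZnT2, which loads zinc into vesicles. It had 0.36, 0.296 and 0.288 scaled CPM in WT RT, 1.07, 1.03 and 2.68 in WT Cold and 0.270, 0.600 and 0.559 in GCN2 KO Cold. The WT Cold libraries were above all others, with library C the highest, while GCN2 KO Cold overlapped WT RT. Limma gave a log2 fold change of 2.09 ± 0.42 (SE, adjusted p = 0.00979, limma) in WT Cold and 0.48 ± 0.42 (SE, adjusted p = 0.414, limma) in GCN2 KO Cold. Between the cold groups it was -1.60, with a 95% interval from -2.72 to -0.48, and did not pass after adjustment over all genes (adjusted p = 0.188 with limma, 0.0736 with DESeq2 and 0.189 with edgeR). The gene was low, with normalized counts from 8.86 to 11.1 in WT RT.

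Slc39a2, which encodes the zinc importer ZIP2, had 0.420, 0.591 and 0.833 scaled CPM in WT RT, 1.91, 1.62 and 0.740 in WT Cold and 2.16, 1.43 and 3.43 in GCN2 KO Cold. It was called in GCN2 KO Cold (1.83 ± 0.39, SE, adjusted p = 0.00854, limma), and in WT Cold, where library C lay within the WT RT range, it had 1.11 ± 0.43 (SE, adjusted p = 0.0919, limma). It was also the highest log2 fold change between the cold groups among members whose normalized counts averaged 50 or more (0.72, adjusted p = 0.507, limma). Slc39a11, which encodes ZIP11, fell by 0.72 in WT Cold (adjusted p = 0.00518, limma) and had -0.39 in GCN2 KO Cold (adjusted p = 0.0576, limma). In GCN2 KO Cold it passed as lower with TMM scaling, at a mean of 50 or above and in the fit of all 3 groups. Slc39a1, the most abundant zinc importer gene, had -0.17 in WT Cold (adjusted p = 0.182, limma) and fell by 0.31 on the log2 scale in GCN2 KO Cold (adjusted p = 0.0215, limma), with adjusted p up to 0.0782 without library C of that group or WT RT library A or B.

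Slc30a1 encodes ZnT1, the zinc exporter of the plasma membrane. It had 18.9, 26 and 24.8 scaled CPM in WT RT, 27.6, 24.9 and 27.4 in WT Cold and 22.8, 20.8 and 28.1 in GCN2 KO Cold, and all groups overlapped. Its log2 fold changes against WT RT were 0.21 (95% interval from -0.10 to 0.51) and 0.04 (from -0.31 to 0.40). Slc39a8 and Slc39a10, importers of zinc and other metals, and Slc30a10, a manganese exporter gene, did not pass in any comparison on all libraries, with log2 fold changes from -0.47 to 0.27. In GCN2 KO Cold against WT RT, Slc39a10 passed as lower without library B of that group and in the fit of all 3 groups. The broadly expressed exporter genes Slc30a5 and Slc30a9 rose by 0.33 and 0.37 in GCN2 KO Cold (adjusted p = 0.026 and 0.0125, limma), but not in the fit of all 3 groups on plain CPM (adjusted p = 0.313 and 0.164). Slc30a5 also did not pass without library B or C labelled GCN2 KO Cold or WT RT library A or B (adjusted p up to 0.086).

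Metallothioneins bind zinc, and Mt1 and Mt2 can be induced through MTF1, whose part in the values here was not tested. Mt1 had 279, 239 and 288 scaled CPM in WT RT, 831, 955 and 1466 in WT Cold and 1020, 966 and 1021 in GCN2 KO Cold, log2 fold changes of 1.97 (adjusted p = 0.000641, limma) and 1.90 (adjusted p = 2.26e-05, limma). Mt2 had 2.16 and 1.96, both past the test, and the cold groups overlapped in both genes. Mtf1 itself rose by 0.72 and 0.64. All 4 genes of the zinc list rose in WT Cold, beside 13.6% of all genes. In GCN2 KO Cold 3 rose (75%, beside 16.4%), and Mt3 had 0.96 (adjusted p = 0.109, limma).

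In the iron transporter families SLC11 and SLC40, the gene of phagocytes fell and the other genes did not pass with limma on all libraries. Slc40a1 encodes ferroportin, the iron exporter, and had 34.1, 30.9 and 27.0 scaled CPM in WT RT, 25.0, 32.6 and 33.1 in WT Cold and 27.9, 26.4 and 31.8 in GCN2 KO Cold. The groups overlapped throughout, and its log2 fold changes were -0.03 (95% interval from -0.35 to 0.30) and -0.09 (from -0.36 to 0.17). Slc11a2, which encodes the importer DMT1, had 0.08 (adjusted p = 0.489, limma) in WT Cold and 0.34 in the GCN2 KO Cold group (adjusted p = 0.0668 with limma and 0.0467 with DESeq2). In GCN2 KO Cold it passed as higher with limma without library A of that group.

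Slc11a1 encodes NRAMP1, which pumps divalent metals out of the phagosomes of macrophages. It had 12.5, 20.9 and 13.4 scaled CPM in WT RT, 6.83, 5.09 and 10.05 in WT Cold and 3.97, 6.94 and 5.91 in GCN2 KO Cold. All cold libraries were below all WT RT libraries. Its log2 fold change was -1.11 ± 0.28 (SE, adjusted p = 0.0233, limma) in WT Cold and -1.47 ± 0.26 (SE, adjusted p = 0.00337, limma) in GCN2 KO Cold. In WT Cold the adjusted p was 0.0641 without WT Cold library A, 0.0716 without WT Cold library B and 0.0731 without WT RT library B. The summed level of 12 macrophage and monocyte markers was 430 to 651 scaled CPM in WT RT, 231 to 364 in WT Cold and 187 to 283 in GCN2 KO Cold, and 8 and 10 of the 12 fell in WT Cold and GCN2 KO Cold. Of these markers 1 or 2 were under 1 scaled CPM in each group, and their part in the results of Slc11a1 and of Slc9a9 was not tested.

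Of 21 other iron handling genes, 3 rose (14.3%) and 5 fell (23.8%) in WT Cold, beside 13.6% and 14.1% of all genes. Against WT RT, 5 rose and 5 fell (23.8% each) in GCN2 KO Cold, beside 16.4% and 17.8%. These rises numbered 2 without library A or B labelled GCN2 KO Cold or WT RT library A or C. The falls in WT Cold numbered 8 without WT Cold library C and 3 without WT RT library B. Tfrc, the transferrin receptor gene through which cells take up iron, rose by 1.07 (adjusted p = 0.0223, limma) and 1.38 (adjusted p = 0.000621, limma), with WT Cold library C at 24.8 scaled CPM and the other 2 WT Cold libraries at 52.7 and 50.4. In WT Cold Tfrc passed without WT Cold library C and had adjusted p from 0.051 to 0.0802 without any other single library. The heme oxygenase gene Hmox1 rose by 1.08 and 0.68, and the ferritin light chain gene Ftl1 by 0.52 and 0.51. In GCN2 KO Cold Hmox1 did not pass without library A or B of that group or WT RT library A or C (adjusted p up to 0.0957). Nor did it pass there in the fit of all 3 groups (adjusted p = 0.0849, limma). Aco1, which encodes the iron regulatory protein IRP1, fell by 1.07 in WT Cold (adjusted p = 0.00063, limma) and by 0.97 in GCN2 KO Cold (adjusted p = 0.00116, limma), and the metalloreductase genes Steap3 and Steap4 fell in both, Steap4 in WT Cold not without WT RT library A or B (adjusted p = 0.0541 and 0.0538).

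**Figure D5:**
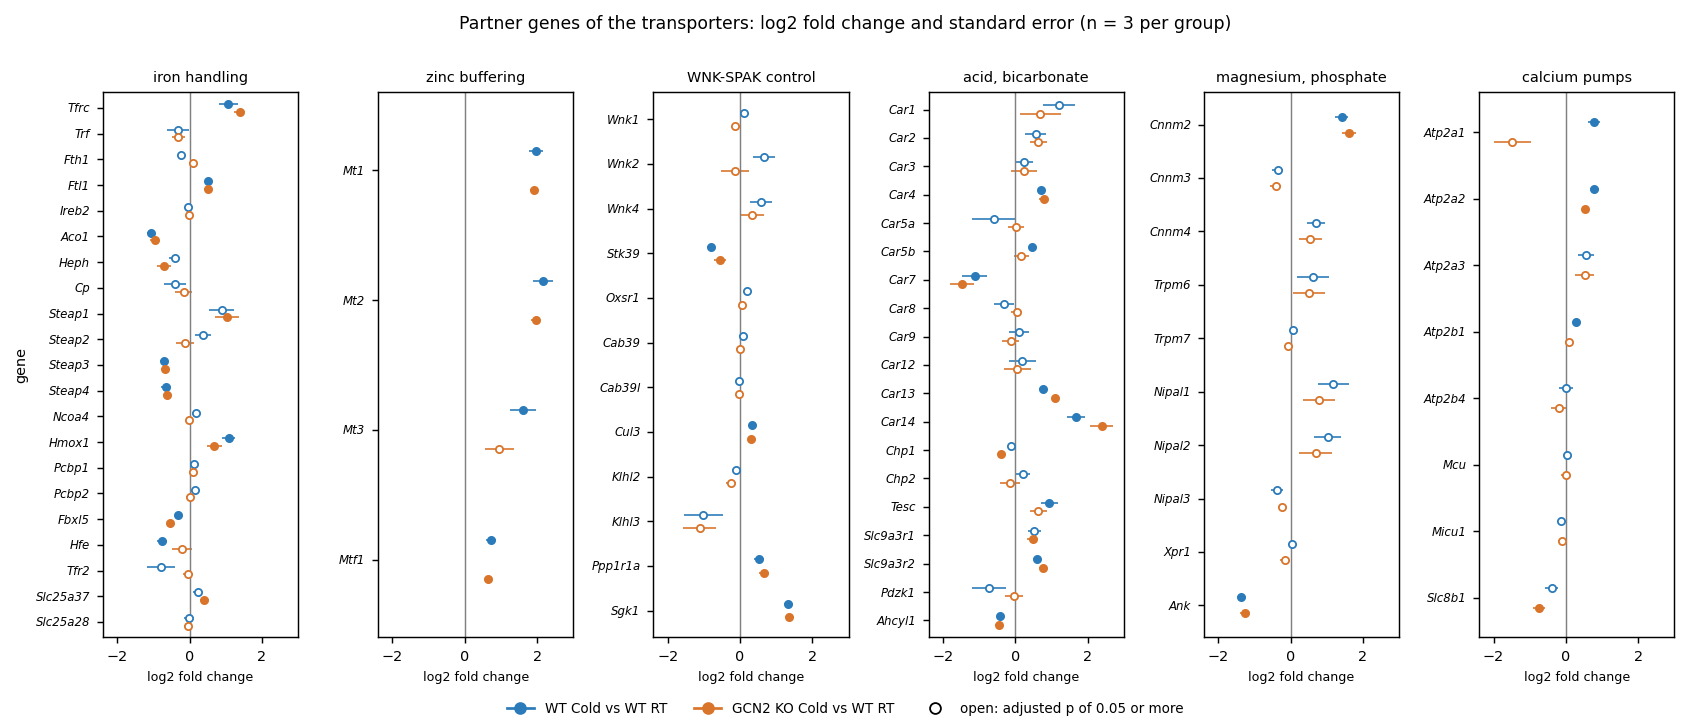
Log2 fold change and standard error (horizontal axes) of the partner genes of the transporters in WT Cold against WT RT and GCN2 KO Cold against WT RT, by list, filled where the adjusted p was under 0.05 (3 libraries per group). All zinc genes lie above 0, while the iron and acid lists hold genes on both sides.

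Among the phosphate and magnesium transporters, Slc20a1 and Slc41a2 rose. Slc20a1 encodes PiT1, a sodium-phosphate cotransporter. It had 39.2, 55.0 and 32.2 scaled CPM in WT RT, 80.9, 94.5 and 65.3 in WT Cold and 88.0, 57.9 and 78.4 in GCN2 KO Cold. The cold libraries were all above WT RT, and the log2 fold changes were 0.95 ± 0.21 (SE, adjusted p = 0.0129, limma) and 0.84 ± 0.21 (SE, adjusted p = 0.0163, limma). In GCN2 KO Cold the adjusted p was above 0.05 without library C labelled GCN2 KO Cold or WT RT library A or C, at up to 0.0558, and was 0.0544 in the fit of all 3 groups. Slc41a2, a magnesium transporter gene, rose by 1.0 (adjusted p = 0.00363, limma) and 0.84 (adjusted p = 0.00757, limma). Slc41a3 had 5.90, 4.64 and 5.01 scaled CPM in WT Cold and 3.58, 4.05 and 1.80 in GCN2 KO Cold, and the log2 fold change between these groups was -0.79 (adjusted p = 0.286, limma; unadjusted p = 0.0359). Slc41a1 and the phosphate gene Slc34a2 did not pass in any comparison. Of 10 partner genes measured, 1 rose and 1 fell in each cold group, shares of 10% beside the 13.6% to 17.8% of all genes. Without WT Cold library C, or without library B labelled GCN2 KO Cold, 2 rose and 2 fell in that group. The magnesium exporter gene Cnnm2 rose by 1.41 and 1.62, and Ank, which encodes a pyrophosphate exporter, fell by 1.37 and 1.26 on the log2 scale, all past the test.

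The organic ion family SLC22 held the member with the largest fall in both cold groups. Slc22a3 encodes OCT3, which takes up noradrenaline and other monoamines outside neurons. It had 56.0, 50.9 and 59.4 scaled CPM in WT RT, 11.8, 11.2 and 10.3 in WT Cold and 10.9, 15.5 and 10.7 in GCN2 KO Cold. The separation from WT RT was complete, and the cold groups overlapped. Limma gave a log2 fold change of -2.32 ± 0.10 (SE, adjusted p = 2.87e-05, limma) in WT Cold and -2.18 ± 0.15 (SE, adjusted p = 9.97e-05, limma) in GCN2 KO Cold. Between the cold groups it was 0.14, with a 95% interval from -0.25 to 0.52.

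Slc22a5 and Slc22a4 encode OCTN2 and OCTN1, related carriers of carnitine and of ergothioneine and other organic cations. Slc22a5 had 59.6, 50.8 and 56.5 scaled CPM in WT RT, 93.5, 80.7 and 78.8 in WT Cold and 85.9, 101 and 95.8 in GCN2 KO Cold. It rose by 0.60 (adjusted p = 0.00446, limma) and 0.76 (adjusted p = 0.000883, limma), and no cold library reached the WT RT range. Slc22a4 had 4.56, 3.25 and 3.08 scaled CPM in WT RT, 7.57, 8.77 and 10.6 in WT Cold and 5.90, 5.55 and 2.83 in GCN2 KO Cold. In this gene the WT Cold libraries stood above both other groups, and GCN2 KO Cold overlapped WT RT through library C. Its log2 fold change was 1.31 ± 0.21 (SE, adjusted p = 0.00389, limma) in WT Cold and 0.34 ± 0.31 (SE, adjusted p = 0.427, limma) in GCN2 KO Cold. Between the cold groups it was -0.97, with a 95% interval from -1.65 to -0.29, the lowest among members whose normalized counts averaged 50 or more, and it did not pass (adjusted p = 0.189 with limma, 0.0503 with DESeq2 and 0.199 with edgeR).

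Slc22a12 encodes URAT1, a urate exchanger of the kidney. It had 0.300, 0.148 and 0.256 scaled CPM in WT RT, 1.27, 1.79 and 1.69 in WT Cold and 1.35, 1.31 and 0.359 in GCN2 KO Cold, which correspond to normalized counts from 4.53 to 9.26 in WT RT and from 39 to 54.8 in WT Cold. The cold libraries were all above WT RT, library C labelled GCN2 KO Cold only slightly. Its log2 fold change was 2.63 ± 0.36 (SE, adjusted p = 0.00215, limma) in WT Cold and 1.79 ± 0.56 (SE, adjusted p = 0.039, limma) in GCN2 KO Cold. The call in GCN2 KO Cold held without library C labelled GCN2 KO Cold, and the adjusted p was 0.0656 to 0.115 without any other single library. Slc22a17, a receptor gene for the iron carrier lipocalin, fell by 0.60 on the log2 scale in GCN2 KO Cold against WT RT (adjusted p = 0.0475, limma), and passed without WT RT library C but had adjusted p from 0.0516 to 0.158 without any other single library. Slc22a15 rose there by 0.64 (adjusted p = 0.00627, limma).

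In the anion family SLC26, Slc26a10, whose transport function is not established, had 6.91, 6.59 and 6.38 scaled CPM in WT RT, 1.67, 1.82 and 3.07 in WT Cold and 3.16, 2.74 and 3.15 in GCN2 KO Cold. All cold libraries were below WT RT, with log2 fold changes of -1.64 ± 0.25 (SE, adjusted p = 0.00308, limma) and -1.13 ± 0.16 (SE, adjusted p = 0.00135, limma). Slc26a6, an exchanger of chloride, oxalate and bicarbonate, rose by 0.65 in GCN2 KO Cold (adjusted p = 0.0156, limma), with adjusted p up to 0.0552 without library B of that group or WT RT library A or B. Slc26a3, the chloride/bicarbonate exchanger known from the colon, was the most abundant member of the family but varied widely within groups. It had 49.3, 59.9 and 24 scaled CPM in WT RT, 79.4, 119 and 38.3 in WT Cold and 109, 57.8 and 62.8 in GCN2 KO Cold. Its log2 fold changes of 0.78 and 0.82 did not pass (adjusted p = 0.236 and 0.104, limma), but it passed as higher in WT Cold without WT Cold library C. In the dicarboxylate family SLC13, Slc13a3 had -0.97 in WT Cold and -0.67 in the GCN2 KO Cold group (adjusted p = 0.0836 and 0.156, limma), and Slc13a2 did not pass. Slc13a3 passed as lower in WT Cold without WT Cold library C.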

How the data were processed

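RNA-seq of BAT in 9 libraries was analysed. The authors trimmed reads with Trimmomatic 0.36, aligned them with STAR 2.5.2b, counted unique reads in exons with featureCounts of Subread 1.5.2 and compared groups with DESeq2. The submitters' processing notes name GRCm39. The deposited values are a signal per gene and library, counts divided by each library's size factor, within each of 3 tables. Columns with log2 fold changes and p-values made by the authors are in these tables and were not used. A library's group was taken from the tables that share its code, and columns of other samples numbered 0. Whole reads were recovered for 100% of values (within 0.01 of a step) and did not differ between tables.

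The main test was limma 3.58.1 (R 4.3.3) with a mean-variance trend on log2(value + 1), in place of the study's DESeq2 because the values are normalized, with Benjamini-Hochberg adjustment over all genes of a table. On this scale fold changes of low genes are understated. DESeq2 1.42.0 and edgeR 4.0.16 were run on the recovered reads. Scaled CPM used median-ratio size factors over 9 libraries and scaled RPKM the exon lengths of GENCODE M21 (GRCm38), and GRCm38 coordinates are given for promoters only. Depth was alike between libraries, so the spread between libraries limits all but low genes. Scripts were tested on simulated data. Replicates of a group differed by more than sampling noise.

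Members, partner lists and markers were chosen with earlier results of these data known. Named genes are members called in at least 1 comparison, a few members read by eye from a picture of the study (all of them also called, so they add no gene), members of known role in metal, pH, volume or monoamine transport, the highest member of each family and the largest rise and fall of each comparison at a mean normalized count of at least 50. Slc12a9, Slc39a11, Slc4a2, Slc4a8, Slc41a2, Slc22a15, Slc22a17, Slc26a6 and Slc30a5 fall outside this rule. They were picked with their values in view, as were the named partner genes. The non-transporters Slc4a1ap and Slc9a3r1 also fall outside it. Slc13a3, a dicarboxylate carrier gene, was listed with the members of known role. Some genes that meet the rule are not reported here. Alternatives were the tool, scaling, pseudocount (0.5 and 5), filters on the mean (10 and 50), the trend, the fold threshold, fitting all 3 groups, and leaving out each library.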

Additional observations from a re-analysis of the deposited data

How the results depend on the processing

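The number of members called was 11 in WT Cold against WT RT, 0 in GCN2 KO Cold against WT Cold and 10 in GCN2 KO Cold against WT RT, and of all genes 1357, 42 and 1754. With no threshold on the fold change there were 21 and 28 members in the comparisons with WT RT, and 4624, 66 and 5657 genes. In GCN2 KO Cold against WT Cold, DESeq2 on the recovered reads called 1 member and 209 genes, the fit of all 3 groups 1 member and 189 genes, and the fit without a mean-variance trend 6 genes. With a filter at a mean of at least 50, there were 8 members in WT Cold against WT RT and 6 in GCN2 KO Cold against WT RT. The cause of these differences was not tested, except that the filter left 65 members to test. It removed the called genes Slc22a12, Slc30a2 and Slc9a3 in WT Cold against WT RT, and Slc22a12, Slc4a1, Slc8a3 and Slc39a2 in GCN2 KO Cold against WT RT.

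Leaving out each library in turn gave 9 to 16 members and 1090 to 1854 genes in WT Cold against WT RT, 0 members and 3 to 22 genes in GCN2 KO Cold against WT Cold, and 9 to 12 members and 1424 to 1875 genes in GCN2 KO Cold against WT RT. The 16 members and 1854 genes were those without WT Cold library C. In the comparison of the cold groups, all 6 left-out libraries lowered the count of 42 genes. Over 14 called genes in 3 comparisons, 655 alternative values were computed, of which 629 kept the call or its absence, 21 lost a call, 5 gained a call and 0 reversed a called direction.

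The fit of all 3 groups on plain CPM moved the median of all genes to -0.08, -0.12 and -0.19 in the 3 comparisons, and of 2103 genes it called in GCN2 KO Cold against WT RT, 329 were higher and 1774 lower, against 499 and 1255. No paired analysis was possible because the columns carry no replicate numbers. The mean normalized counts of Slc22a12, Slc30a2, Slc9a3, Slc4a1, Slc39a2 and Slc8a3 were under 50 in at least 1 comparison in which they were called or compared. The effect of depth on these genes was not tested.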

Other observations

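Some members that did not pass with limma on all libraries differed widely between libraries of 1 group, and were picked for that after their values were seen. Slc26a2, the sulfate transporter gene, had 76.1, 93.9 and 44.8 scaled CPM in WT Cold, where Slc9a2, an epithelial sodium/proton exchanger gene, had 16, 19.6 and 9.34. Against WT RT, Slc9a2 passed as higher with DESeq2 and with limma without WT Cold library C. Slc26a1, another sulfate transporter gene, had 2.24, 3.99 and 9.45 scaled CPM in WT Cold, a 4.21-fold range. It passed as lower against WT RT with limma without WT Cold library C. Slc22a26 was at 3.24 scaled CPM in WT Cold library C and at 0.319 or less in the other 8 libraries.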
